A study of Mus musculus with 21 samples.

Results

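The response of wild-type (WT) mouse macrophages to 4 h of lipopolysaccharide (LPS) was measured in 8 libraries of the 21 in the study. They are the 4 WT libraries taken after 4 h of LPS at 100 ng/ml and the 4 WT libraries left untreated (0 h), chosen by their labels alone. All came from bone marrow of male C57Bl6/J mice aged 6 to 12 weeks, grown for 7 days with medium conditioned by L929 fibroblasts, a source of macrophage colony-stimulating factor, which gives bone marrow-derived macrophages (BMDMs). The other libraries are WT cells after 18 h of LPS and cells labelled Nur77-KO at each time, whose genotype is given only as cre. Nr4a1 is the gene of the nuclear receptor Nur77. The labels number the libraries 1 to 4 within a group without stating whether a number stands for a mouse or culture, so a p-value here reflects only how far the deposited libraries differ, which may be technical spread.

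LPS, from the outer membrane of Gram-negative bacteria, is handed by Cd14 to Toll-like receptor 4. The receptor signals from the cell surface through Myd88 to NF-kB and MAP kinases, and from endosomes through Ticam1 to Irf3 and interferon beta. Secreted interferon then acts back on the cells through Jak kinases and Stat factors, and a set of inhibitors made by the response itself limits it.

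Values are in CPM, the unit that expresses a gene's reads relative to all reads kept for genes, scaled by edgeR's library factors. Genes are called higher or lower where edgeR's quasi-likelihood test gave a p under 0.05 after Benjamini-Hochberg adjustment, and fold changes are log2 of 4 h over untreated. Means carry the SD over the 4 libraries of a group (n = 4 each), and lists of 4 values run from number 1 to number 4. The reads kept for genes totalled 14008382 to 29650081 per library at 4 h and 14476453 to 26400142 untreated. The first principal component of the 8 libraries held 90.4% of their variance and parted the 2 groups. The second held 2.65%, with number 2 at 28.8 at 4 h and 28.7 untreated and the other libraries between -18.3 and -1.6. Number 1 stood most apart within its group by counts (chi-square of 28.8 to 69.2 per gene against the others, and 6.99 to 13.9 among the others). Number 2 had the highest summed level of 12 stromal fibroblast markers in each group, within ranges of 11.2 to 71.2 CPM at 4 h and 3.38 to 131 CPM untreated, and 1 of the 9 tested stromal markers was higher and none lower. The 10 macrophage markers summed to 19445 to 24785 CPM at 4 h and 18444 to 19325 CPM untreated. The 12 neutrophil markers summed to 98.1 to 149 CPM at 4 h, against 27.7 to 48.7 CPM untreated, with 5 of 7 tested ones higher and 1 lower. Lcn2 was at 37.69 to 48.93 CPM of that sum at 4 h, against 0.7985 to 2.297 CPM untreated. Ngp, S100a8 and S100a9 also lay higher in every 4 h library than in every untreated one. Elane, Mpo, Ctsg and Ly6g had no read at 4 h. The 5 endothelial markers summed to 57.5 to 74.4 CPM at 4 h, against 6.83 to 10.7 CPM untreated (2 of 3 tested higher), the 4 plasmacytoid dendritic cell markers to 804 to 1060 CPM against 198 to 245 CPM (3 of 4 higher), and the 6 conventional dendritic cell markers to 4.73 to 5.16 CPM against 0.724 to 1.28 CPM (2 of 2 higher). Tcf4 and Bst2 made up most of the plasmacytoid dendritic cell sum. Siglech, of the same set, was at 0 to 0.469 CPM at 4 h and 0.281 to 0.719 CPM untreated. Kdr made up most of the endothelial sum at 4 h (51.65 to 66.52 CPM, against 2.934 to 4.341 CPM untreated). Pecam1 was at 2.906 to 4.18 CPM at 4 h and 2.555 to 3.469 CPM untreated. The part of these cell types in the results was not tested. In bulk RNA, fewer cells of a type and less RNA per cell cannot be told apart.

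Most genes moved. Of 12529 tested genes, 4403 were higher (35.1%) and 5383 lower (43.0%) after 4 h, so a list of genes has to be read against 78.1% of all genes called. The expression filter can admit a gene through the libraries where it is high, so the counts and medians of all lists are descriptions. Groups did not overlap for 71.5% of all tested genes and for 8872 of the called ones (90.7%). Most genes named below were chosen for groups without overlap, so its absence in them is a condition of the choice and not a result. Of the genes called higher, 4278 lay above the untreated library of the same number in 4 of 4 pairs, and of those called lower, 5260 lay below it in 4 of 4. The calls were more even in number than in size. At least 2-fold changes counted 2542 higher and 3259 lower genes, at least 4-fold 1385 and 1427, at least 16-fold 478 and 242, at least 64-fold 186 and 39, and at least 256-fold 52 and 2. The median log2 fold change of all tested genes was -0.17, and it was -0.52 with upper-quartile library factors, under which 32.6% of calls were higher, against 45.0% as reported.

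Fewer genes held 50% of the reads at 4 h, although the 10 most abundant genes of a library held 10.3 to 11.2% at 4 h, against 11.9 to 12.3% untreated. The 478 genes at least 16-fold higher (3.82% of the tested genes) held 21.5 to 23.6% of the reads at 4 h, against 0.768 to 1.09% untreated. The 242 genes at least 16-fold lower (1.93%) held 0.019 to 0.0282% at 4 h, against 1.2 to 1.33% untreated. Both sets were chosen by their change, so these shares are a description. Between 290 and 318 genes held 50% of the reads at 4 h, against 614 to 628 genes untreated. The 10 largest rises in CPM among non-overlapping named genes were Rsad2, Actb, Ifit2, Cmpk2, Acod1, Cxcl10, Gbp5, Clic4, Sdc4 and Parp14. Rsad2 (NM_021384, chromosome 12, 26442743 to 26456452 on mm10), which encodes the antiviral enzyme viperin, had 34059, 29688, 33552 and 29668 CPM in the 4 h libraries, against 231, 102, 170.2 and 167 CPM in the untreated libraries. Actb (NM_007393, chromosome 5, 142903115 to 142907976 on mm10), cytoplasmic beta actin, had 26956, 23379, 25401 and 22955 CPM in the 4 h libraries, against 4101, 4646, 4686 and 4566 CPM in the untreated libraries. Both genes' groups stood well apart, although their fold changes were unlike (log2 fold change 7.56, SE 0.27, and 2.46, SE 0.08). The 10 largest falls in CPM were Selenop, Ctsd, Ftl1, Abca1, Csf1r, Lipa, Slc43a2, Slc40a1, Neat1 and Stab1. They include genes of selenium transport (Selenop), the lysosome (Ctsd, Lipa), iron storage and export (Ftl1, Slc40a1), cholesterol export (Abca1) and the growth factor receptor of macrophages (Csf1r).

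**Figure D1:**
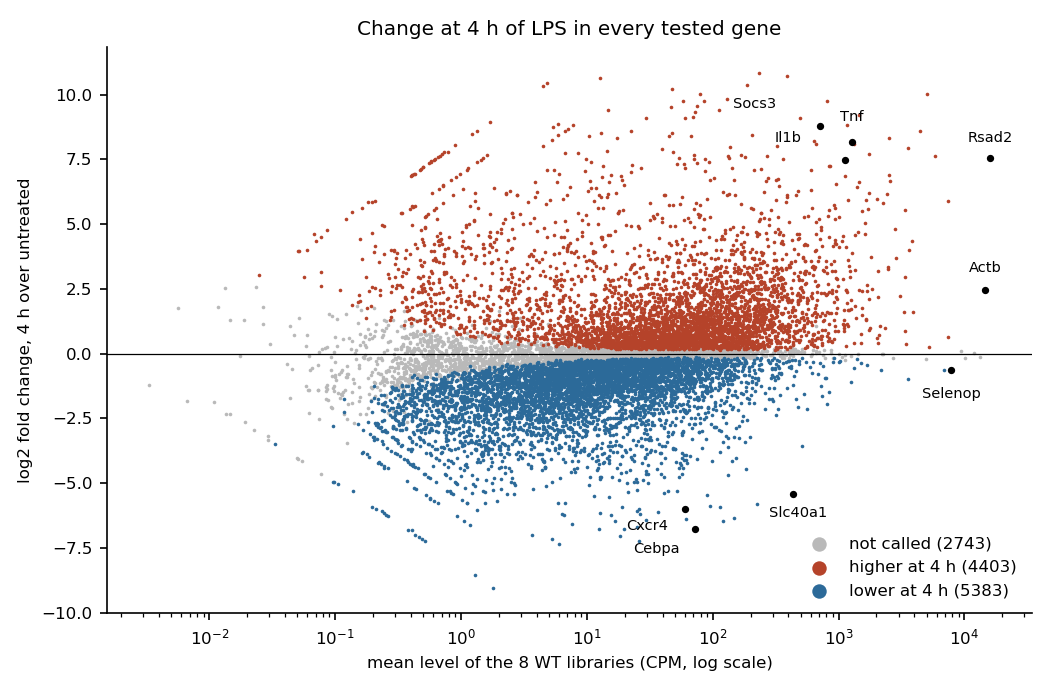
Fold change of every tested gene against its level. The horizontal axis is the mean CPM of the 8 WT libraries (log scale), the vertical axis the log2 fold change of 4 h over untreated, and points are coloured by call (4403 higher, 5383 lower, the rest grey). Rises reach further from 0 than falls, with 52 genes at least 256-fold higher and 2 at least 256-fold lower.

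Receptors for bacterial products moved in both directions. Of 19 tested Toll-like receptors and LPS co-receptors, 11 were higher and 5 lower, with a median log2 fold change of 0.43, where 35.1% of all tested genes were higher and 43.0% lower with a median of -0.17. Tlr4 itself (NM_021297, chromosome 4, 66827551 to 66846581 on mm10), the LPS receptor, had 125, 84.9, 91.3 and 71.7 CPM in the 4 h libraries, against 204, 192, 204 and 161 CPM in the untreated libraries. The groups did not overlap, and Tlr4 was lower (edgeR log2 fold change -1.03 with SE 0.14 and an adjusted p of 6.27e-07). Cd14, which delivers LPS to it, was 1422 ± 355 CPM at 4 h and 221 ± 25.9 CPM untreated and higher (2.69, SE 0.16). Tlr3, an endosomal receptor for double-stranded RNA, was higher (330.1 ± 92.5 CPM at 4 h and 21.3 ± 5.29 CPM untreated). Tlr1 (581 CPM at 4 h against 69.1 CPM untreated) and Tlr6 (90.7 CPM at 4 h against 19.3 CPM untreated), the partners of Tlr2 in sensing lipopeptides, were higher too. Tlr5, the flagellin receptor, fell to 0.54 CPM at 4 h, against 7.66 CPM untreated, and Tlr13, a mouse receptor for bacterial ribosomal RNA, was 37.2 CPM at 4 h against 270.4 CPM untreated.

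Downstream of the receptors, 19 of 30 adaptors and proximal kinases were higher and 8 lower (median 0.63). Traf1, an adaptor of TNF receptors, had 447, 362, 415 and 411 CPM in the 4 h libraries, against 0.985, 0.543, 1.84 and 1.55 CPM in the untreated libraries. The gene was barely detected in untreated cells and well expressed in every 4 h library (log2 fold change 8.43, SE 0.20). Ripk2, the kinase of the NOD receptors, was 469.9 ± 31.8 CPM at 4 h and 10.9 ± 1.35 CPM untreated, the ubiquitin ligase Peli1 was 813 CPM at 4 h against 38.6 CPM untreated, and the kinase Irak2 was 463 CPM at 4 h against 39.1 CPM untreated. Peli1's relative Peli2 went the other way, with 5.48 CPM at 4 h against 55.4 CPM untreated, as did Irak4 (20.3 CPM at 4 h against 58 CPM untreated), the kinase that starts signalling below Myd88, Tab1 (2.67 CPM at 4 h against 11.5 CPM untreated), a partner of the kinase Tak1, and Traf3 (11.3 CPM at 4 h against 22 CPM untreated), an adaptor toward interferon.

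Inhibitors made by the pathway itself were higher. In the list of NF-kB subunits, inhibitors and deubiquitinases, 19 of 21 were higher and 1, Otulin, was lower, with a median of 3.27. Nfkbia (NM_010907, chromosome 12, 55489409 to 55492647 on mm10), the inhibitor that holds NF-kB in the cytoplasm, had 1205, 1264, 1383 and 1301 CPM in the 4 h libraries, against 38.5, 31.7, 41.6 and 40.1 CPM in the untreated libraries. Every 4 h library lay far above every untreated one (edgeR log2 fold change 5.08 with SE 0.10 and an adjusted p of 2.43e-20). Nfkbiz, a nuclear cofactor of NF-kB needed for part of its targets, was 1193 ± 46.7 CPM at 4 h and 14.9 ± 2.6 CPM untreated, and Tnip3, a ubiquitin-binding inhibitor, was 2355 ± 157 CPM at 4 h and 38.7 ± 4.09 CPM untreated. Otulin, which cleaves linear ubiquitin chains, was 25.5 ± 1.1 CPM at 4 h and 36.8 ± 1.77 CPM untreated.

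Members of feedback regulator families moved in both directions, as did the tested genes at large (35.1% higher and 43.0% lower). Among 19 MAP kinase phosphatases and Sprouty-type inhibitors, 8 were higher (42.1%) and 9 lower (47.4%). Under median-of-ratios factors and DESeq2 the counts were 9 and 9. Dusp2 had 311, 286, 345 and 387 CPM in the 4 h libraries, against 1.28, 1.3, 2.01 and 2.11 CPM in the untreated libraries, and Dusp1, the phosphatase of p38 and Jnk, was 230.3 ± 24.2 CPM at 4 h and 18.8 ± 3.11 CPM untreated. Dusp6, which acts on Erk, fell to 1.68 ± 0.253 CPM at 4 h, against 13.7 ± 1.66 CPM untreated, with Dusp3 (42.2 CPM at 4 h against 205 CPM untreated) and Dusp7 (14.8 CPM at 4 h against 59.3 CPM untreated) lower too. Proteins that bind AU-rich or stem-loop elements of cytokine mRNA showed the same division. Zfp36 (tristetraprolin), which destabilises Tnf mRNA, was 712 ± 22.7 CPM at 4 h and 124 ± 12 CPM untreated, whereas its relative Zfp36l1 had 23.1, 19.8, 10.1 and 12.1 CPM in the 4 h libraries, against 426, 341, 327 and 316 CPM in the untreated libraries. Zfp36l1 was lower (log2 fold change -4.44, SE 0.20), and Zfp36l2 likewise (25 CPM at 4 h against 242 CPM untreated). The endonuclease genes Zc3h12a (130.2 CPM at 4 h against 11.9 CPM untreated) and Zc3h12c (191 CPM at 4 h against 20.6 CPM untreated) and Arid5a (220.2 CPM at 4 h against 13.7 CPM untreated), which protects Il6 mRNA, were higher. In the whole list of 23 such genes 11 were higher and 7 lower, and 10 and 11 with upper-quartile factors.

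Cytokine signalling inhibitors of the SOCS and PIAS families were higher in 11 of 16 cases and lower in 2. Socs3, the inhibitor of gp130 and leptin-type receptors, had 1328, 1431, 1491 and 1430.5 CPM in the 4 h libraries, against 2.42, 2.03, 4.86 and 3.8 CPM in the untreated libraries. It was scarce in every untreated library and abundant in every 4 h library (edgeR log2 fold change 8.79 with SE 0.26 and an adjusted p of 8.33e-18). Socs1, which inhibits Jak kinases, was 96.9 ± 29.7 CPM at 4 h and 0.425 ± 0.164 CPM untreated, and Cish was 16 CPM at 4 h against 0.739 CPM untreated. Socs6 (37.8 CPM at 4 h against 130.4 CPM untreated) and Socs5 (10.3 CPM at 4 h against 22.6 CPM untreated) fell.

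**Figure D2:**
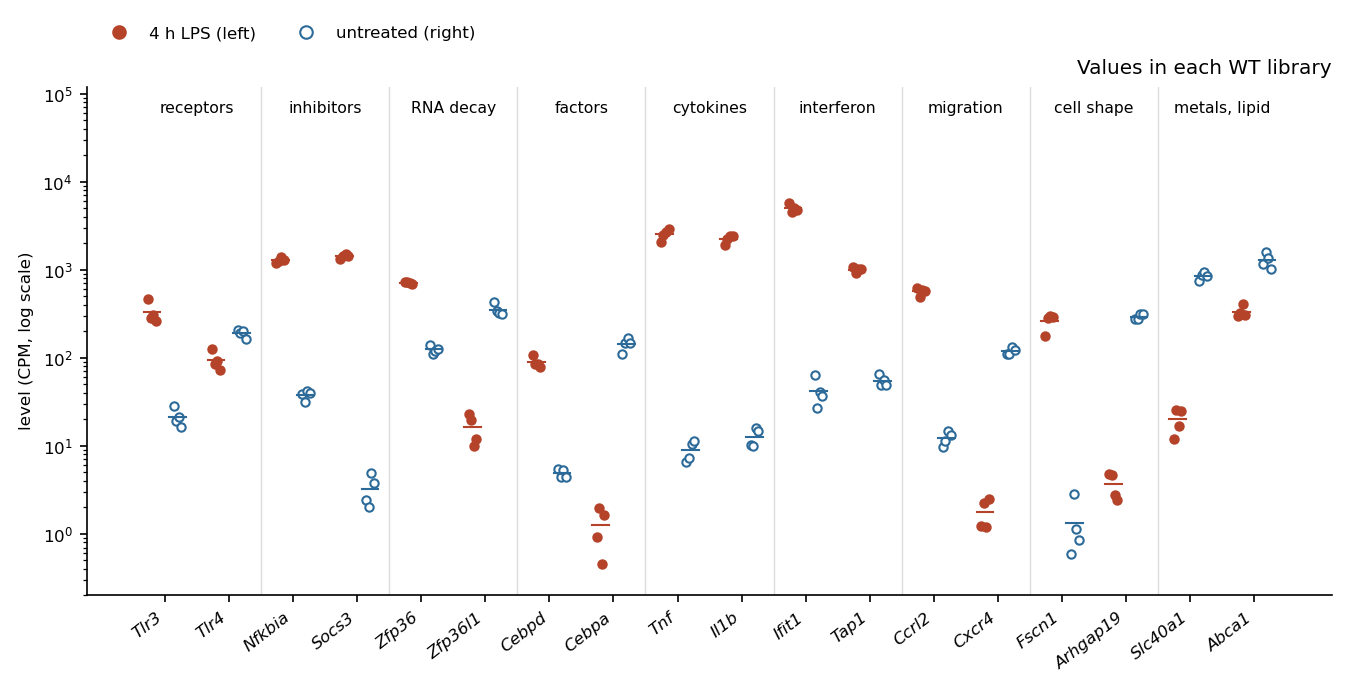
Values of 18 genes in each library, in CPM on a log scale, grouped by role. For each gene the 4 h libraries are on the left (filled points) and the untreated libraries on the right (open points), with a line at each group's mean. The groups do not overlap for any gene shown, which the rule that named these genes required. Paired relatives (Zfp36 and Zfp36l1, Cebpd and Cebpa, Ccrl2 and Cxcr4) lie in opposite order.

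Transcription factors of the response were mostly higher, with some members of each list lower. AP-1, ATF and small Maf factors were higher in 18 of 26 cases and lower in 6 (median 0.87). Batf2 (107 CPM at 4 h against 1.94 CPM untreated), Batf (138 CPM at 4 h against 4.76 CPM untreated) and Jdp2 (152 CPM at 4 h against 7.44 CPM untreated), dimerisation partners of Jun proteins, and Maff (15.5 CPM at 4 h against 0.999 CPM untreated) rose. Fos, an immediate early gene, was 19.7 ± 5.57 CPM at 4 h and 61 ± 4.48 CPM untreated and so lower at 4 h. Interferon regulatory factors and STATs were higher in 16 of 19 cases (median 1.87), led by the kinase gene Jak2 with 1897, 2007, 2100.5 and 1849.8 CPM in the 4 h libraries, against 58.6, 48.4, 55.2 and 43.2 CPM in the untreated libraries. The 2 groups of Jak2 values were far apart (log2 fold change 5.26, SE 0.11). Irf7, the amplifier of type I interferon, was 1409.5 ± 465 CPM at 4 h and 51.7 ± 23.1 CPM untreated, and Stat5a was 338 ± 46.1 CPM at 4 h and 17.1 ± 1.22 CPM untreated. Lower in this list were Stat6 (118 CPM at 4 h against 179 CPM untreated), the transducer of interleukin 4, Irf4 (0.64 CPM at 4 h against 2.56 CPM untreated, log2 fold change -2.08 and -2.75 without 4 h number 2) and Irf3 (18.8 CPM at 4 h against 23 CPM untreated). The call of Irf3 (log2 fold change -0.29, adjusted p = 0.025 by edgeR) ended under median-of-ratios factors, DESeq2, a fit of the 8 libraries alone, and without 4 h number 3 or untreated number 4 (adjusted p from 0.093 to 0.116 by these fits).

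Transcription factors of macrophage identity were lower in 20 of 37 cases and higher in 12 (median -0.79). Among the higher was Spi1 (PU.1), a central factor of the lineage, at 779 ± 39.5 CPM at 4 h and 162 ± 2.26 CPM untreated. The C/EBP factors differed in direction. Cebpd had 107, 85.8, 85.9 and 78 CPM in the 4 h libraries, against 5.4, 4.38, 5.34 and 4.41 CPM in the untreated libraries, while Cebpa, the factor of myeloid commitment, fell to 1.25 ± 0.688 CPM at 4 h, against 142 ± 23.5 CPM untreated. Their log2 fold changes were 4.18 (SE 0.16) and -6.78 (SE 0.21). Fli1, an Ets factor, was 7.42 ± 1.92 CPM at 4 h and 112 ± 24.7 CPM untreated, Bhlhe41 was 2.35 ± 0.751 CPM at 4 h and 57.1 ± 2.15 CPM untreated, and Tfeb, the regulator of lysosomal genes, was 1.71 ± 0.297 CPM at 4 h and 24.6 ± 3.03 CPM untreated, while its relative Tfec was 271 ± 28.7 CPM at 4 h and 29.4 ± 2.57 CPM untreated. Nuclear receptors and coregulators fell in 18 of 27 cases and rose in 7 (median -0.86). Rxra, the common partner of many nuclear receptors, had 4.55, 6.75, 7.22 and 7.39 CPM in the 4 h libraries, against 94.8, 116, 126 and 109 CPM in the untreated libraries. Pparg (4.16 CPM at 4 h against 42.6 CPM untreated), Ppard (3.99 CPM at 4 h against 28.1 CPM untreated) and Nr1d1 (0.695 CPM at 4 h against 9.02 CPM untreated), a repressor of the circadian clock, were lower as well. Higher were the coactivator gene Ppargc1b (24.9 CPM at 4 h against 2.7 CPM untreated), Nr1h3 (21.3 CPM at 4 h against 7.51 CPM untreated), which encodes LXR alpha, and Nr3c1 (297 CPM at 4 h against 128 CPM untreated), the glucocorticoid receptor. Nr4a1 (NM_010444, chromosome 15, 101253902 to 101274795 on mm10) had 7.25, 2.16, 1.74 and 1.3 CPM in the 4 h libraries, against 13.4, 16.2, 15.2 and 14 CPM in the untreated libraries. It was lower (log2 fold change -2.22, SE 0.32), with 4 h number 1 well above the other 3 libraries at 4 h, and its log2 fold change without that library was -3.14.

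Interleukin and growth factor ligands rose in 22 of 36 cases and fell in 8, with a median of 3.56. Members nearly absent in untreated cells, such as Ifnb1, can pass the expression filter through libraries where they are high. The count and median are thus a description. Tnf (NM_013693, chromosome 17, 35199367 to 35202007 on mm10), the founding cytokine of its family, had 2063, 2505, 2701 and 2927 CPM in the 4 h libraries, against 6.57, 7.2, 10.6 and 11.4 CPM in the untreated libraries. Il1b (NM_008361, chromosome 2, 129364569 to 129371164 on mm10), the substrate of caspase 1, had 1889.5, 2252, 2429 and 2409 CPM in the 4 h libraries, against 10.2, 10.1, 15.9 and 14.8 CPM in the untreated libraries. Both were abundant in every 4 h library and scarce in every untreated one, with log2 fold changes of 8.17 (SE 0.22) and 7.47 (SE 0.25). Il10, the main anti-inflammatory cytokine of macrophages, was 21 ± 3.38 CPM at 4 h and 1.78 ± 0.693 CPM untreated (3.51, SE 0.29). Ifnb1, interferon beta, had 3 reads in the 4 untreated libraries together and 756 in the 4 h libraries, a ratio of 458 (95% exact counting interval 156 to 2225). Among the lower members, Vegfa was 19.2 ± 5.62 CPM at 4 h and 126 ± 21.3 CPM untreated, Pdgfb was 4.44 ± 2.11 CPM at 4 h and 36.9 ± 5.93 CPM untreated, and Hgf was 4.93 ± 1.29 CPM at 4 h and 18.7 ± 1.21 CPM untreated. The groups did not overlap for any of the 3, which the rule that named them required and which held for 71.5% of all tested genes.

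In the TNF superfamily 19 of 31 ligands and receptors were higher and 9 lower (median 1.72). Cd40, the receptor through which T cells license antigen-presenting cells, had 2133, 2095, 2477 and 2560.5 CPM in the 4 h libraries, against 4.42, 2.53, 7.57 and 6.14 CPM in the untreated libraries. It was a minor transcript in untreated cells and an abundant one at 4 h (log2 fold change 8.83, SE 0.27). Tnfsf4 (OX40 ligand) was 20.8 CPM at 4 h against 0.0522 CPM untreated, and Tnfrsf9 (4-1BB) had 603 reads at 4 h and 3 untreated, a ratio of 365 (95% exact counting interval 124 to 1776). Lower members included Tnfrsf21, a death receptor (6.61 CPM at 4 h against 42.2 CPM untreated), Tnfsf12, which encodes TWEAK (20.4 CPM at 4 h against 61.4 CPM untreated), and Tnfrsf13b (14.9 CPM at 4 h against 42 CPM untreated), a receptor of the B cell factor BAFF.

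Chemokines had a median of 5.44, with 18 of 25 higher and 3 lower. Chemokine genes nearly absent in untreated cells, such as Ccl22, can pass the filter through libraries where they are high, so these values are a description. Cxcl10, a ligand of Cxcr3, had 10097, 8038, 9207 and 8296 CPM in the 4 h libraries, against 28.1, 11.5, 29.2 and 24 CPM in the untreated libraries. Cxcl9 (978 ± 629.9 CPM at 4 h and 1.81 ± 1.05 CPM untreated), a second ligand of the same receptor, Ccl5 (2657 ± 397 CPM at 4 h and 9.82 ± 6.35 CPM untreated) and Ccl22 (224 ± 128 CPM at 4 h and 0.353 ± 0.225 CPM untreated) rose by 9.09, 8.10 and 9.41 on the log2 scale. The 3 lower members were scarce or moved little. Cxcl14 was 6.93 ± 2.32 CPM at 4 h and 10.4 ± 1.79 CPM untreated, and its call ended without 4 h number 1 or untreated number 3 (adjusted p of 0.0818 and 0.0711 by edgeR), Ppbp was 1.77 CPM at 4 h against 3.38 CPM untreated, and Ccl27a had 3 reads at 4 h and 60 untreated, an untreated over 4 h ratio of 11.0 (95% exact counting interval 3.59 to 54.9).

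**Figure D3:**
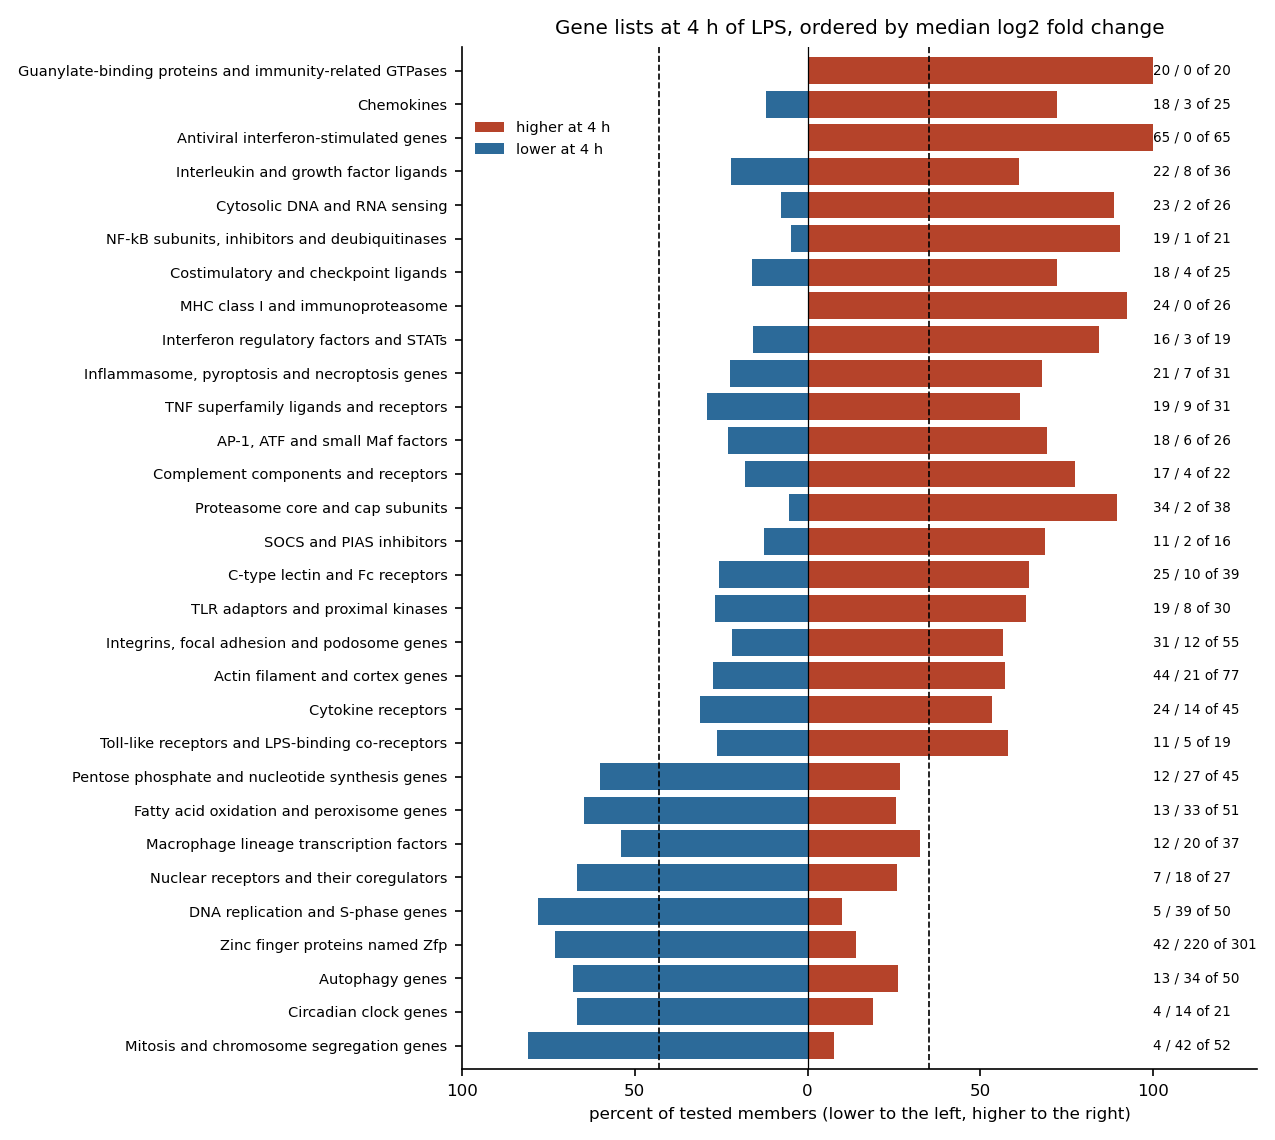
Share of tested members called higher (right of 0) and lower (left of 0) at 4 h in 30 gene lists, in percent, with the numbers of higher and lower genes and of genes tested beside each bar. Dashed lines mark the shares over all 12529 tested genes, 35.1% higher and 43.0% lower. The antiviral and guanylate-binding lists reach 100% higher, and the mitosis, replication, clock and autophagy lists lie well to the left. The lists were chosen with earlier results of these data known.

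Antiviral interferon-stimulated genes and guanylate-binding genes moved in one direction, and those of nucleic acid sensing and poly(ADP-ribose) polymerases mostly so. All 65 tested antiviral genes were higher (median 3.89), as were all 20 guanylate-binding proteins and immunity-related GTPases (median 5.52). In nucleic acid sensing 23 of 26 genes were higher and 2 lower (median 3.28). Of 13 poly(ADP-ribose) polymerases 9 were higher and 4 lower (median 2.59). The lists were chosen with earlier results of these data known. The expression filter can also admit a gene through the libraries where it is high, so these shares are a description. Ifit1, which binds foreign RNA, had 5645, 4519, 5064 and 4806 CPM in the 4 h libraries, against 63.2, 26.8, 41.2 and 36.6 CPM in the untreated libraries. Oasl1 was 726 ± 202 CPM at 4 h and 3.92 ± 1.72 CPM untreated, and Usp18, which removes Isg15 from proteins, was 745 ± 98.1 CPM at 4 h and 12.7 ± 3.47 CPM untreated. Gbp4 (652 CPM at 4 h against 2.46 CPM untreated, log2 fold change 8.02 and 7.36 without 4 h number 1), Gbp6 (482 CPM at 4 h against 3.36 CPM untreated) and Tgtp1 (185 CPM at 4 h against 1.07 CPM untreated) act on the vacuoles of intracellular pathogens. Ifih1 (Mda5), the sensor of long double-stranded RNA, was 3345 ± 133 CPM at 4 h and 69.7 ± 20.2 CPM untreated, and Ifi205 was 3447 ± 219 CPM at 4 h and 16.4 ± 7.21 CPM untreated. The adaptor Mavs, on which Mda5 signals, was lower (12.7 ± 1.9 CPM at 4 h and 45 ± 2.75 CPM untreated), as was Nlrx1 (1.54 CPM at 4 h against 7.11 CPM untreated). Among PARP enzymes, Parp14, Parp12 (884 CPM at 4 h against 60.9 CPM untreated), Parp9 (1002 CPM at 4 h against 84.3 CPM untreated) and Tiparp (461 CPM at 4 h against 32.6 CPM untreated) were higher, whereas the DNA damage enzymes Parp1 (47.2 ± 2.66 CPM at 4 h and 112 ± 6.47 CPM untreated) and Parp2 (15.7 ± 2.23 CPM at 4 h and 29.9 ± 3.96 CPM untreated) were lower. Several of these families consist of near-identical copies, between which reads may be divided in a way that the files do not show.

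The promoters of strongly induced genes are shown because their letters can be set beside the fold changes. Windows of 250 bases upstream of the start (RefSeq, GRCm38.p6, 5′ to 3′ on the gene's strand) were searched on both strands for the kappa-B type motif (GGG, 3 bases of any kind, then TTCC), to which NF-kB binds, and the interferon-stimulated response element type motif (GAAA, 2 bases of any kind, then GAAA), to which Irf and Stat complexes bind. Matches to either are in capitals, and the 6 genes were chosen after their values and matches were seen.
Cxcl1, chr5:90890995-90891244, plus strand: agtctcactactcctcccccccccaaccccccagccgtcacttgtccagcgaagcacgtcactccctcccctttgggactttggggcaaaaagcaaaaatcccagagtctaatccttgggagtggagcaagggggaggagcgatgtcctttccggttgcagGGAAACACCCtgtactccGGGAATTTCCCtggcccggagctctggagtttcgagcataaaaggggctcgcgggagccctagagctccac
Cxcl2, chr5:90903649-90903898, plus strand: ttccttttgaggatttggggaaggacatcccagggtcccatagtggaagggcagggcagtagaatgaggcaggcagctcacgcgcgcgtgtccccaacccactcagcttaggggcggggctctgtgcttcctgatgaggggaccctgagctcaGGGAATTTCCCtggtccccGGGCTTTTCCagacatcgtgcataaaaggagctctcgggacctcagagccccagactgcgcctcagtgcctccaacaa
Nfkbia, chr12:55492648-55492897, minus strand: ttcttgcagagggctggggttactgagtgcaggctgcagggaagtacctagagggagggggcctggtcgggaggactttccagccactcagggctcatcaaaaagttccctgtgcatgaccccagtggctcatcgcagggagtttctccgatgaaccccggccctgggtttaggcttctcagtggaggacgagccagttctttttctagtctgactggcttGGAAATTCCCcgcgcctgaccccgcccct
Cxcl10, chr5:92348890-92349139, minus strand: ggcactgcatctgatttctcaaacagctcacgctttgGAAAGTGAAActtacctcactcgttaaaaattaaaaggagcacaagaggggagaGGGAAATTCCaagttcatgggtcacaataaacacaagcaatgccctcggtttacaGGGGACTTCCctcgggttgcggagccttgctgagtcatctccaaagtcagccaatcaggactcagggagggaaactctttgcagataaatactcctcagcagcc
Isg15, chr4:156200819-156201068, minus strand: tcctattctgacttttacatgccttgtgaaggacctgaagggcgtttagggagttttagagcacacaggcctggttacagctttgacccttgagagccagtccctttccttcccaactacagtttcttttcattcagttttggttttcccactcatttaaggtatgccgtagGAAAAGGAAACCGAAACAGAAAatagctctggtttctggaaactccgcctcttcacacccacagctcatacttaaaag
Ifit1, chr19:34640639-34640888, plus strand: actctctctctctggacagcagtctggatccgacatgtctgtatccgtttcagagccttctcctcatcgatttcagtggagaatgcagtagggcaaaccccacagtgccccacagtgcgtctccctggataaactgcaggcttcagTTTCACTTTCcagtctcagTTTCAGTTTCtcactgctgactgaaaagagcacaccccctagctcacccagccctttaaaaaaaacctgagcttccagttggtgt

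The neutrophil chemokine genes Cxcl1 and Cxcl2 had 3 kappa-B type matches each, with first bases 89, 71 and 70 bases upstream in Cxcl1 and 97, 96 and 78 in Cxcl2. Matches that overlap on both strands are joined in the print. Nfkbia had 1 such match at 29 bases. Cxcl10 had 2 kappa-B type matches, at 159 and 104 bases, and 1 response element match at 213 bases. Isg15, a ubiquitin-like modifier, had 3 overlapping response element matches from 78 bases, and Ifit1 had 2, from 104 and 85 bases. Cxcl1 was 19.3 ± 10.3 CPM at 4 h and 0.142 ± 0.119 CPM untreated, Cxcl2 was 151 ± 21.4 CPM at 4 h and 3.62 ± 0.39 CPM untreated, and Isg15 was 947 ± 136 CPM at 4 h and 12 ± 4.27 CPM untreated.

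Of the 9984 windows searched, 5.29% held the kappa-B type motif and 3.0% the response element motif. As 79.7% of tested genes had a window, these are shares of the windows and not of the tested genes. A comparison of these shares between the genes that moved most is void, because 355 of the 478 genes at least 16-fold higher (74.3%) and 183 of the 242 at least 16-fold lower (75.6%) had a window, under the 80% required. Ccl2, Ccl4, Ccl5 and Cd40 are among the higher genes without one. The shares of the AP-1, cyclic AMP and E box motifs are left out for the same reason. A match is a description of letters and not a bound site.

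The genes that moved most are described by their structure, with no test. In the set at least 16-fold higher the median transcript had 6 exons and 2596 bases, against 7 exons and 3144 bases in the set at least 16-fold lower and 9 exons and 2871 bases over all tested genes with a length. The share with up to 3 exons was 26.7% in the higher set, 26.5% in the lower set and 14.9% in all. Neighbours are described by position only, and the runs were picked out after their values were seen. On mm10 coordinates, consecutive tested genes at least 4-fold higher lay on chromosome 1, among them Aim2, the sensor of cytosolic DNA, and genes of the Ifi200 family. Other such runs held the Ifit genes on chromosome 19 (6 genes in 112 kb), Gbp genes on chromosomes 3 and 5 (6 and 5 genes), Cxcl9, Art3, Cxcl10, Cxcl11 and Nup54 on chromosome 5 (5 genes, median log2 fold change 8.58), and Ccl2, Ccl7, Ccl12, Ccl8 and Tmem132e on chromosome 11 (5 genes, median 6.68). A run of 7 Zfp and related genes on chromosome 2 was at least 4-fold lower (median -3.03). How counting treated strand and shared reads is not stated in the labels, and genes within such runs may share reads.

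Receptors for cytokines were higher in 24 of 45 cases and lower in 14 (median 0.51). The alpha chains Il2ra (34.5 CPM at 4 h against 0.107 CPM untreated) and Il15ra (239 ± 37.9 CPM at 4 h and 3.11 ± 0.752 CPM untreated) rose, as did Met (26.5 CPM at 4 h against 1.41 CPM untreated), the receptor of Hgf. The interleukin 6 receptor fell in both of its chains. Il6ra had 4.61, 6.28, 6.12 and 4.84 CPM in the 4 h libraries, against 105, 111, 117 and 94.2 CPM in the untreated libraries, and its signalling partner Il6st (gp130) was 55.1 ± 8.6 CPM at 4 h and 198 ± 8.78 CPM untreated. Both groups stood apart (log2 fold change -4.31, SE 0.11, and -1.85, SE 0.12). The related Lifr (7.35 CPM at 4 h against 30.5 CPM untreated) and Il7r (23.8 CPM at 4 h against 134 CPM untreated) fell too.

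Chemoattractant receptors were divided. The formyl peptide receptors, which detect bacterial peptides, were higher. Fpr1 was 81.5 ± 76 CPM at 4 h and 1.25 ± 0.705 CPM untreated, with a log2 fold change of 6.12 and of 5.21 without 4 h number 1, which held far more than the other libraries. Fpr2 was 172 ± 85 CPM at 4 h and 1.35 ± 0.531 CPM untreated, and the atypical receptor Ccrl2 was 566 ± 55.3 CPM at 4 h and 12.2 ± 2.21 CPM untreated. Cxcr4, the receptor of the marrow chemokine Cxcl12, had 1.23, 2.25, 1.19 and 2.51 CPM in the 4 h libraries, against 110.2, 111, 131 and 122 CPM in the untreated libraries. It was lower (log2 fold change -6.00, SE 0.20), as were Cx3cr1 (2.07 CPM at 4 h against 17.5 CPM untreated) and Gpr183 (1.23 CPM at 4 h against 16.5 CPM untreated), the oxysterol receptor. In all 9 of 19 were higher and 6 lower, and 6 and 9 with upper-quartile factors.

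Other G protein-coupled receptors changed in nearly equal numbers, 20 of 45 higher and 18 lower, but by large amounts. Adora2a, an adenosine receptor, had 179, 135, 147 and 142 CPM in the 4 h libraries, against 0.0798, 0.109, 0.482 and 0.188 CPM in the untreated libraries. Untreated cells held only traces of it (log2 fold change 9.56, SE 0.24, and 10.26 without untreated number 3). Gpr84, a receptor of medium-chain fatty acids, was 255 ± 66.1 CPM at 4 h and 3.65 ± 0.687 CPM untreated, Hcar2, the niacin receptor, was 25.3 CPM at 4 h against 0.384 CPM untreated, and Lpar1 was 36.8 ± 15.2 CPM at 4 h and 0.306 ± 0.139 CPM untreated. Other lysophosphatidic acid receptors did the opposite. Lpar5 was 0.428 ± 0.338 CPM at 4 h and 30.8 ± 1.11 CPM untreated and Lpar6 was 2.16 ± 0.532 CPM at 4 h and 85.9 ± 9.52 CPM untreated. Arrestin genes, which end receptor signals, fell, with Arrb1 at 10.5 ± 1.79 CPM at 4 h and 188 ± 13.9 CPM untreated and Arrb2 at 70.1 ± 5.26 CPM at 4 h and 213 ± 25.5 CPM untreated, within a list of 18 regulators of G protein signalling of which 7 were higher and 10 lower. With upper-quartile factors the receptor counts were 17 and 24.

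Of 26 class I and immunoproteasome genes 24 were higher and none lower (median 2.64). Tap1, which carries peptides into the endoplasmic reticulum, had 1066, 905, 1011 and 1011 CPM in the 4 h libraries, against 65, 49.4, 56.1 and 49.1 CPM in the untreated libraries, and Nlrc5, the transactivator of class I genes, was 683 ± 64 CPM at 4 h and 33.3 ± 4.41 CPM untreated. The immunoproteasome subunits Psmb8 (317 CPM at 4 h against 50.0 CPM untreated), Psmb9 (102 CPM at 4 h against 15.1 CPM untreated) and Psmb10 (172 CPM at 4 h against 23.4 CPM untreated) were higher within a proteasome list in which 34 of 38 genes were higher and 2 lower (median 0.7). Class II genes had 7 of 14 higher and 5 lower, and 5 and 6 with upper-quartile factors. Cd74, the invariant chain, was 102 ± 34.4 CPM at 4 h and 38.3 ± 9.48 CPM untreated, while Rfxap (2.81 CPM at 4 h against 8.35 CPM untreated) and Rfxank (5.37 CPM at 4 h against 13.6 CPM untreated), 2 subunits of the factor that drives class II genes, were lower. Costimulatory and checkpoint genes were higher in 18 of 25 cases. Cd274 (PD-L1) had 3289, 3141, 3341 and 3208 CPM in the 4 h libraries, against 65, 44.1, 48.9 and 52.3 CPM in the untreated libraries, and Cd200 was 133 ± 39.3 CPM at 4 h and 0.404 ± 0.163 CPM untreated. Its receptor Cd200r1 was lower (36.1 ± 4.28 CPM at 4 h and 87.3 ± 10.3 CPM untreated), as were Vsir, which encodes the checkpoint protein VISTA (171 ± 15.9 CPM at 4 h and 511 ± 27.9 CPM untreated), and Havcr2, which encodes TIM-3 (4.83 CPM at 4 h against 22.6 CPM untreated).

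Of 22 enzymes and transporters of nitric oxide, arginine, tryptophan and itaconate metabolism 11 were higher and 4 lower, and 7 lower with upper-quartile factors. Slc7a2, which imports arginine, the substrate of Nos2, had 603, 667, 729 and 636 CPM in the 4 h libraries, against 4.82, 6.48, 7.57 and 5.62 CPM in the untreated libraries. It was higher (log2 fold change 6.76, SE 0.15). In the eicosanoid list 6 of 24 were higher and 10 lower (median -0.3). Pla2g4a, which frees arachidonic acid, was higher at 127 ± 5.76 CPM at 4 h and 10.4 ± 0.712 CPM untreated. Ptgs2 (cyclooxygenase 2) had 1474, 1761, 1739.5 and 1528 CPM in the 4 h libraries, against 0.506, 1.16, 4.2 and 2.2 CPM in the untreated libraries (log2 fold change 9.75, and 10.41 without untreated number 3). Ptges, a prostaglandin E synthase, was 103 ± 9.86 CPM at 4 h and 0.669 ± 0.282 CPM untreated. Ptgs1, the constitutive cyclooxygenase, was 20.6 ± 0.789 CPM at 4 h and 52.8 ± 5 CPM untreated, and Hpgd, which degrades prostaglandins, was 3 ± 1.62 CPM at 4 h and 20.3 ± 4.37 CPM untreated. Both were lower, with log2 fold changes of -1.36 and -2.82.

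Antioxidant and redox genes moved unevenly, 18 of 37 higher and 14 lower, and 12 and 15 with upper-quartile factors. Sod2 had 1983, 1706, 1899.5 and 1750.2 CPM in the 4 h libraries, against 45.5, 48.4, 56 and 48.7 CPM in the untreated libraries, and Slc7a11, the cystine importer, was 49.8 ± 13.1 CPM at 4 h and 1.77 ± 0.459 CPM untreated. Txn1 (thioredoxin) was higher too, at 345 ± 38.8 CPM at 4 h and 71.3 ± 11.4 CPM untreated. Hmox1 (127 ± 13.7 CPM at 4 h and 432 ± 52.1 CPM untreated), Gclc (4.71 ± 0.361 CPM at 4 h and 26.1 ± 1.18 CPM untreated) and Srxn1 (18.4 ± 2.68 CPM at 4 h and 58.4 ± 9.23 CPM untreated) were lower. In the inflammasome and cell death list 21 of 31 genes were higher and 7 lower (median 1.72). Casp4, the cytosolic LPS receptor known as caspase 11 in mouse, was 425 ± 27.8 CPM at 4 h and 16.5 ± 4.12 CPM untreated, whereas the sensors Nlrp1b (3.85 CPM at 4 h against 23.6 CPM untreated) and Nlrc4 (4.46 CPM at 4 h against 15.4 CPM untreated) were lower. Bcl2 family and apoptosis regulators were higher in 23 of 37 cases and lower in 10. The survival genes Bcl2a1d (547 ± 31.9 CPM at 4 h and 5 ± 0.918 CPM untreated) and Bcl2a1a (120.0 ± 11.6 CPM at 4 h and 0.86 ± 0.283 CPM untreated), which are near-identical copies, rose. Bmf, a BH3-only activator of apoptosis, had 0.369, 1.12, 0 and 0.179 CPM in the 4 h libraries, against 29.5, 31.8, 38.6 and 33.4 CPM in the untreated libraries (log2 fold change -6.46, and -7.32 without 4 h number 2). Pmaip1 (Noxa) was 7.61 ± 0.764 CPM at 4 h and 28 ± 3.93 CPM untreated.

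Complement genes were higher in 17 of 22 cases and lower in 4 (11 higher with upper-quartile factors). C3 had 4869, 4287, 4504 and 3899.5 CPM in the 4 h libraries, against 114, 62.7, 71.7 and 66.3 CPM in the untreated libraries, and Cfb, its partner in the alternative pathway, was 297 ± 224 CPM at 4 h and 4.32 ± 1.64 CPM untreated (log2 fold change 6.11, and 5.42 without 4 h number 1). Serpinb2, an inhibitor of plasminogen activators, was 23.9 ± 24 CPM at 4 h and 0.455 ± 0.393 CPM untreated, with a log2 fold change of 5.61 and of 4.57 without 4 h number 1. Plau, the urokinase that it inhibits, was 24.2 ± 8.34 CPM at 4 h and 92.4 ± 15.4 CPM untreated, and Thbd (thrombomodulin) was 0.424 ± 0.0468 CPM at 4 h and 8.94 ± 1.51 CPM untreated. Among 29 matrix proteases and inhibitors 11 were higher and 10 lower, and 9 and 12 with upper-quartile factors. Mmp13 (collagenase 3) had 6756, 4321, 4717 and 4150.5 CPM in the 4 h libraries, against 15.1, 12.7, 19.5 and 15.4 CPM in the untreated libraries, and Adamts4, an aggrecanase, was 169.9 ± 59.2 CPM at 4 h and 0.199 ± 0.159 CPM untreated, while Timp2 was lower (225 ± 10.8 CPM at 4 h and 433 ± 21.2 CPM untreated).

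Of 36 scavenger and apoptotic cell receptors 11 were higher (30.6%) and 15 lower (41.7%), near the 35.1% and 43.0% of all tested genes. Marco, a class A scavenger receptor of bacteria, had 123, 71.9, 60.0 and 52.4 CPM in the 4 h libraries, against 2.85, 1.81, 1.8 and 2.48 CPM in the untreated libraries, and its relative Msr1 was 1900.1 ± 124 CPM at 4 h and 259 ± 10.2 CPM untreated. Olr1 was 26 CPM at 4 h against 0.22 CPM untreated, and Mertk, which mediates uptake of dying cells, was 805 ± 79.7 CPM at 4 h and 312 ± 18.8 CPM untreated. Cd163, the haemoglobin scavenger receptor, was lower (1.21 ± 0.463 CPM at 4 h and 22.6 ± 1.96 CPM untreated), with Stab1 (354 ± 106 CPM at 4 h and 1110.3 ± 162 CPM untreated) and Cd300a (54 ± 7.32 CPM at 4 h and 317 ± 17.9 CPM untreated). C-type lectin and Fc receptors were higher in 25 of 39 cases and lower in 10. Clec4e (Mincle) had 2902, 1547, 1574 and 1497 CPM in the 4 h libraries, against 24.5, 16.3, 21.5 and 18.2 CPM in the untreated libraries, and Fcgr4 was 568 ± 120.0 CPM at 4 h and 90.1 ± 4.83 CPM untreated. Inpp5d, which encodes the phosphatase SHIP1 that restrains Fc receptors, had 19.5, 15.2, 12.6 and 12.7 CPM in the 4 h libraries, against 238, 285, 284 and 263 CPM in the untreated libraries. It was lower (log2 fold change -4.16, SE 0.14).

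The study's title names macrophage mechanics, and genes that shape the cell and its adhesion moved in both directions. Actin genes were higher in 44 of 77 cases and lower in 21 (median 0.54), and adhesion genes in 31 of 55 and 12 (median 0.59). Fscn1, which bundles actin in filopodia, had 177, 283, 302 and 293 CPM in the 4 h libraries, against 0.586, 2.82, 1.14 and 0.844 CPM in the untreated libraries. Its log2 fold change was 7.62 and 8.32 without untreated number 2. Marcksl1, a membrane-bound regulator of actin, was 3949.7 ± 365 CPM at 4 h and 62.4 ± 4.01 CPM untreated. The formins Fmnl2 (412 ± 109.8 CPM at 4 h and 27.3 ± 1.35 CPM untreated) and Fmnl3 (2.63 ± 0.531 CPM at 4 h and 30.9 ± 2.97 CPM untreated) went in opposite directions. Abi3 (2.22 CPM at 4 h against 24.2 CPM untreated), a subunit of the WAVE complex, and the cofilin phosphatase Ssh2 (6.62 CPM at 4 h against 52.5 CPM untreated) were lower. Src, the kinase of podosomes, had 141, 189, 208 and 213 CPM in the 4 h libraries, against 1.44, 1.81, 1.66 and 2.44 CPM in the untreated libraries, and Itgav was 641 ± 102 CPM at 4 h and 87 ± 9.02 CPM untreated. Tns1, which links integrins to actin, was 5.04 ± 1.72 CPM at 4 h and 72.9 ± 6.8 CPM untreated, and Sh3pxd2a (Tks5), a scaffold of podosomes, was 12.5 ± 2.04 CPM at 4 h and 51.6 ± 7.25 CPM untreated. Vim (vimentin) was 1472 ± 282 CPM at 4 h and 371 ± 39.1 CPM untreated.

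Small GTPases of the cytoskeleton and their regulators changed in both directions. Of 20 such GTPases 13 were higher and 4 lower (median 1.02). Rnd3, a constitutively GTP-bound member that loosens actin stress fibres, had 451, 398, 426 and 419.7 CPM in the 4 h libraries, against 3.17, 3.62, 2.98 and 2.53 CPM in the untreated libraries, and its relative Rnd1 was 31 ± 2.95 CPM at 4 h and 0.259 ± 0.101 CPM untreated. Their GTPase-activating proteins were nearly balanced, with 12 of 29 higher and 13 lower. Arhgap19 had 4.79, 4.69, 2.74 and 2.42 CPM in the 4 h libraries, against 277, 275, 311 and 312 CPM in the untreated libraries. Its fall (log2 fold change -6.35, SE 0.18) was the deepest of the family, followed by Arhgap45 (15.3 ± 3.45 CPM at 4 h and 214 ± 17.9 CPM untreated) and Arhgap18 (31.2 ± 1.98 CPM at 4 h and 329.8 ± 17.1 CPM untreated). Arhgap26 (GRAF1) rose (101 ± 17.6 CPM at 4 h and 11.3 ± 1.58 CPM untreated). Exchange factors were lower in 8 of 16 cases and higher in 4, with Arhgef3 higher (391 ± 25.7 CPM at 4 h and 116 ± 9.06 CPM untreated) and Arhgef6 lower (44.5 ± 3.36 CPM at 4 h and 163 ± 6.74 CPM untreated).

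Of 50 glycolysis and hypoxia-response genes 25 were higher and 17 lower, and 22 and 22 with upper-quartile factors. The transporters Slc2a1 (114 ± 7.81 CPM at 4 h and 15.2 ± 2.54 CPM untreated) and Slc2a6 (529 ± 66.7 CPM at 4 h and 5.26 ± 1.23 CPM untreated) rose. Pfkfb3, which makes and degrades fructose 2,6-bisphosphate, had 405, 456, 456 and 423 CPM in the 4 h libraries, against 37.8, 40.2, 39.8 and 38.3 CPM in the untreated libraries, while Pfkfb2 (3.01 ± 0.649 CPM at 4 h and 24.1 ± 0.297 CPM untreated) and Pfkfb4 (7.64 ± 0.934 CPM at 4 h and 37.1 ± 2.94 CPM untreated) fell. Pfkp, the platelet form of phosphofructokinase, was higher (293 ± 13.9 CPM at 4 h and 34.1 ± 2.55 CPM untreated), and Pdk2, which inhibits pyruvate dehydrogenase, was lower (0.757 ± 0.162 CPM at 4 h and 11.1 ± 0.599 CPM untreated). In the citric acid cycle list 12 of 40 were higher and 14 lower, and 13 and 13 with median-of-ratios factors, 14 and 13 with DESeq2 and 5 and 28 with upper-quartile factors. Glul, which makes glutamine, was lower (121 ± 18.6 CPM at 4 h and 538 ± 19.9 CPM untreated). Pck2 was 1.8 ± 0.315 CPM at 4 h and 25.8 ± 3.55 CPM untreated.

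Of 45 pentose phosphate and nucleotide genes 12 were higher and 27 lower (median -0.44), and 6 were higher with upper-quartile factors. Lower members included Umps (2.65 CPM at 4 h against 20.6 CPM untreated), Pfas (2.63 CPM at 4 h against 12 CPM untreated) and Cad (4.01 CPM at 4 h against 11.5 CPM untreated). Higher members included Mthfd2, a mitochondrial folate enzyme, at 38.7 ± 8.11 CPM at 4 h and 8.01 ± 0.956 CPM untreated, Upp1, uridine phosphorylase, at 44.4 ± 15.9 CPM at 4 h and 0.123 ± 0.0815 CPM untreated, Pnp at 2083 ± 398 CPM at 4 h and 90.8 ± 7.89 CPM untreated, and Nampt, of the NAD salvage route, at 1688 ± 225 CPM at 4 h and 144 ± 29.5 CPM untreated. Fatty acid oxidation and peroxisome genes were lower in 33 of 51 cases and higher in 13 (median -0.6), and lower in 38 and higher in 5 with upper-quartile factors. Abcd2, a peroxisomal importer of very long-chain fatty acids, had 0.738, 1.03, 0.731 and 0.582 CPM in the 4 h libraries, against 55.6, 47.4, 53.1 and 42.8 CPM in the untreated libraries. Acyl-CoA synthetases differed in direction, Acsl1 (316 ± 61.9 CPM at 4 h and 37.7 ± 1.84 CPM untreated) and Acsl5 (420.1 ± 16.2 CPM at 4 h and 98.8 ± 7.66 CPM untreated) higher and Acsl3 (2.14 ± 1.21 CPM at 4 h and 30.1 ± 5.78 CPM untreated) lower.

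In sterol and lipid synthesis 16 of 39 genes were higher and 14 lower, and 9 and 17 with upper-quartile factors. Dhcr7, near the end of cholesterol synthesis, was 3.89 ± 1.37 CPM at 4 h and 14.7 ± 2.04 CPM untreated, and the fatty acid enzymes Fasn (5.93 ± 1.73 CPM at 4 h and 23.9 ± 3.72 CPM untreated), Scd2 (8.56 ± 4.63 CPM at 4 h and 47.5 ± 4.35 CPM untreated) and Fads1 (21.7 ± 5.3 CPM at 4 h and 95.4 ± 5.59 CPM untreated) were lower. Lipid efflux and storage genes were lower in 20 of 40 cases and higher in 11. Abca1, which exports cholesterol to apolipoprotein A-I, had 294, 319, 404 and 308 CPM in the 4 h libraries, against 1159.5, 1583, 1347 and 1026 CPM in the untreated libraries. Lipg, endothelial lipase, was 158 ± 57.2 CPM at 4 h and 0.161 ± 0.11 CPM untreated, and Angptl4, an inhibitor of lipoprotein lipase, was 0.667 ± 0.424 CPM at 4 h and 37.7 ± 4.02 CPM untreated.

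The lysosome list had 14 of 61 higher and 29 lower (47.5%, where 43.0% of all tested genes were lower), and 46 lower with upper-quartile factors. Ctsd was 5347 ± 357 CPM at 4 h and 8309 ± 472 CPM untreated, and Sgsh, a heparan sulfate sulfatase, was 7.23 ± 1.2 CPM at 4 h and 93 ± 8.4 CPM untreated. Ctsc, which activates serine proteases of granules, was higher (3161 ± 947 CPM at 4 h and 554 ± 64.6 CPM untreated). Autophagy genes were lower in 34 of 50 cases and higher in 13 (median -1.11). Sesn1, a leucine-sensing inhibitor of mTORC1, had 4.61, 13.4, 6.95 and 7.39 CPM in the 4 h libraries, against 434, 444, 465 and 432 CPM in the untreated libraries. Ulk1, the kinase that starts autophagy, was 5.94 ± 1.3 CPM at 4 h and 50.9 ± 1.92 CPM untreated, and Flcn was 10.5 ± 2.17 CPM at 4 h and 86.9 ± 8.01 CPM untreated. The receptors Optn (147 ± 8.05 CPM at 4 h and 24.9 ± 3.52 CPM untreated) and Tax1bp1 (927 ± 129 CPM at 4 h and 219 ± 19.4 CPM untreated), which recognise ubiquitin, were higher.

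Of 52 mitosis genes 42 were lower and 4 higher (median -1.75), and of 50 replication genes 39 were lower and 5 higher (median -1.05). Cdc25b, the phosphatase that starts mitosis, had 0.553, 1.22, 0.183 and 0.537 CPM in the 4 h libraries, against 13.9, 14.3, 15.2 and 13.8 CPM in the untreated libraries. Kif23 (0.721 CPM at 4 h against 12.2 CPM untreated) and Cenpf (0.964 CPM at 4 h against 9.64 CPM untreated) were lower, as were the licensing inhibitor Gmnn (0.836 ± 0.377 CPM at 4 h and 10.4 ± 0.474 CPM untreated) and Pold1 (0.926 ± 0.139 CPM at 4 h and 6.6 ± 1.24 CPM untreated). Against the list, Kif4 had 51.5, 53.2, 52.6 and 47.5 CPM in the 4 h libraries, against 5.14, 6.26, 4.25 and 4.12 CPM in the untreated libraries, and Tpx2 (75.9 ± 17.2 CPM at 4 h and 15.4 ± 1.57 CPM untreated), Mki67 (186 ± 17.7 CPM at 4 h and 72.3 ± 17.8 CPM untreated) and Rfc3 (34.2 ± 5.61 CPM at 4 h and 6.68 ± 1.14 CPM untreated) were higher. Cdkn1a (p21), an inhibitor of cyclin-dependent kinases, had 2409, 3279.5, 3399.5 and 3359.6 CPM in the 4 h libraries, against 138, 119, 128 and 124 CPM in the untreated libraries, and Ccnd2 was 669 ± 13.7 CPM at 4 h and 7.64 ± 0.709 CPM untreated. Myc antagonists were divided, Mxd1 higher (474 ± 42.8 CPM at 4 h and 32.2 ± 1.58 CPM untreated) and Mxd4 (1.83 ± 0.306 CPM at 4 h and 28.3 ± 1.54 CPM untreated) and Mnt (3.12 ± 1.1 CPM at 4 h and 69.1 ± 1.64 CPM untreated) lower.

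Of 79 cytosolic ribosomal proteins 33 were higher and none lower (median 0.23), but 5 were higher and 23 lower with upper-quartile factors and 53 higher with median-of-ratios factors, so their direction depends on the scaling. Nuclear genes of the respiratory chain had 34 of 78 higher and 8 lower (median 0.21), and 14 higher and 29 lower with upper-quartile factors. Chaperone and unfolded protein response genes were higher in 28 of 54 cases and lower in 13, and 23 each way with upper-quartile factors. Ppp1r15a, which ends the block of translation in stress, was 205 ± 6.59 CPM at 4 h and 15.9 ± 1.52 CPM untreated, while the stress sensors Eif2ak3 (4.95 ± 1.25 CPM at 4 h and 38.4 ± 2.37 CPM untreated) and Ern1 (8.98 ± 1.44 CPM at 4 h and 47.5 ± 2.36 CPM untreated) were lower.

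Of 39 genes of iron and metal handling 22 were higher and 15 lower (median 0.4). Slc40a1 (NM_016917, chromosome 1, 45908070 to 45926532 on mm10), which encodes the cellular iron exporter ferroportin, had 12, 25.8, 17 and 24.9 CPM in the 4 h libraries, against 739, 880.1, 941 and 845 CPM in the untreated libraries. Every 4 h library lay below every untreated one (edgeR log2 fold change -5.42 with SE 0.21 and an adjusted p of 6.53e-16). Lcn2, which binds bacterial siderophores, was 43.3 ± 5.39 CPM at 4 h and 1.53 ± 0.755 CPM untreated, Cp (ceruloplasmin) was 1369.6 ± 384 CPM at 4 h and 37.8 ± 8.29 CPM untreated, and Mt2, a metallothionein, was 126 ± 8.04 CPM at 4 h and 9.42 ± 0.859 CPM untreated. Clock genes were lower in 14 of 21 cases and higher in 4 (median -1.48). Dbp (1.45 ± 0.205 CPM at 4 h and 35.7 ± 2.73 CPM untreated), Tef (2.97 ± 0.545 CPM at 4 h and 58.4 ± 6 CPM untreated) and Per1 (1.53 ± 0.798 CPM at 4 h and 20.7 ± 1.57 CPM untreated) fell, while Nfil3, which competes with Dbp for the same sites, rose (41.3 ± 4.12 CPM at 4 h and 14.5 ± 1.4 CPM untreated). Zinc finger genes named Zfp were lower in 220 of 301 cases and higher in 42 (median -1.07).

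Histone methyltransferases and demethylases were lower in 23 of 50 cases (46.0%) and higher in 17 (34.0%). These shares lie near the 43.0% and 35.1% of all tested genes, and the counts were 30 and 13 with upper-quartile factors. Setdb2 was 223 ± 21.3 CPM at 4 h and 10.4 ± 2.09 CPM untreated and Setd7 was 6.71 ± 1.83 CPM at 4 h and 107 ± 10.7 CPM untreated. Solute carriers were lower in 112 of 204 cases and higher in 65 (median -0.5). Slc26a11 was 0.718 ± 0.345 CPM at 4 h and 58.1 ± 6.8 CPM untreated, and Slc43a2, an amino acid transporter, had 78.4, 74.1, 78.1 and 88.1 CPM in the 4 h libraries, against 861, 990.4, 1036 and 905 CPM in the untreated libraries.

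Levels at 18 h were compared with those at 4 h in the same fit, where 71.7% of all tested genes differed, and both comparisons share the 4 h libraries. Tnf was 8.94 CPM at 0 h, 2549 CPM at 4 h and 216 CPM at 18 h (18 h over 4 h log2 -3.56, adjusted p = 1.36e-13 by edgeR). Rnd3 had 3.07 CPM at 0 h, 424 CPM at 4 h and 11.9 CPM at 18 h. Ptgs2 had 2.02 CPM at 0 h, 1626 CPM at 4 h and 98.9 CPM at 18 h. The 3 genes thus stood well below their 4 h means at 18 h and above their untreated means. Other genes were higher still. Marco had 2.23 CPM at 0 h, 76.9 CPM at 4 h and 412 CPM at 18 h. Fpr1 had 1.25 CPM at 0 h, 81.5 CPM at 4 h and 386 CPM at 18 h. Cfb had 4.32 CPM at 0 h, 297 CPM at 4 h and 1082 CPM at 18 h, and the 3 differences between 18 h and 4 h passed the test (adjusted p = 1.05e-05, 1.17e-05 and 4.64e-05 by edgeR). Hmox1, low at 4 h, had 432 CPM at 0 h, 127 CPM at 4 h and 2824 CPM at 18 h. Rxra had 112 CPM at 0 h, 6.48 CPM at 4 h and 93.8 CPM at 18 h. Inpp5d had 268 CPM at 0 h, 15 CPM at 4 h and 366 CPM at 18 h, and all 3 were higher at 18 h than at 4 h (adjusted p = 3.36e-17, 1.47e-16 and 3.8e-17 by edgeR). Cxcr4 had 119 CPM at 0 h, 1.79 CPM at 4 h and 1.58 CPM at 18 h, with no call between 18 h and 4 h (adjusted p = 0.565 by edgeR).

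**Figure D4:**
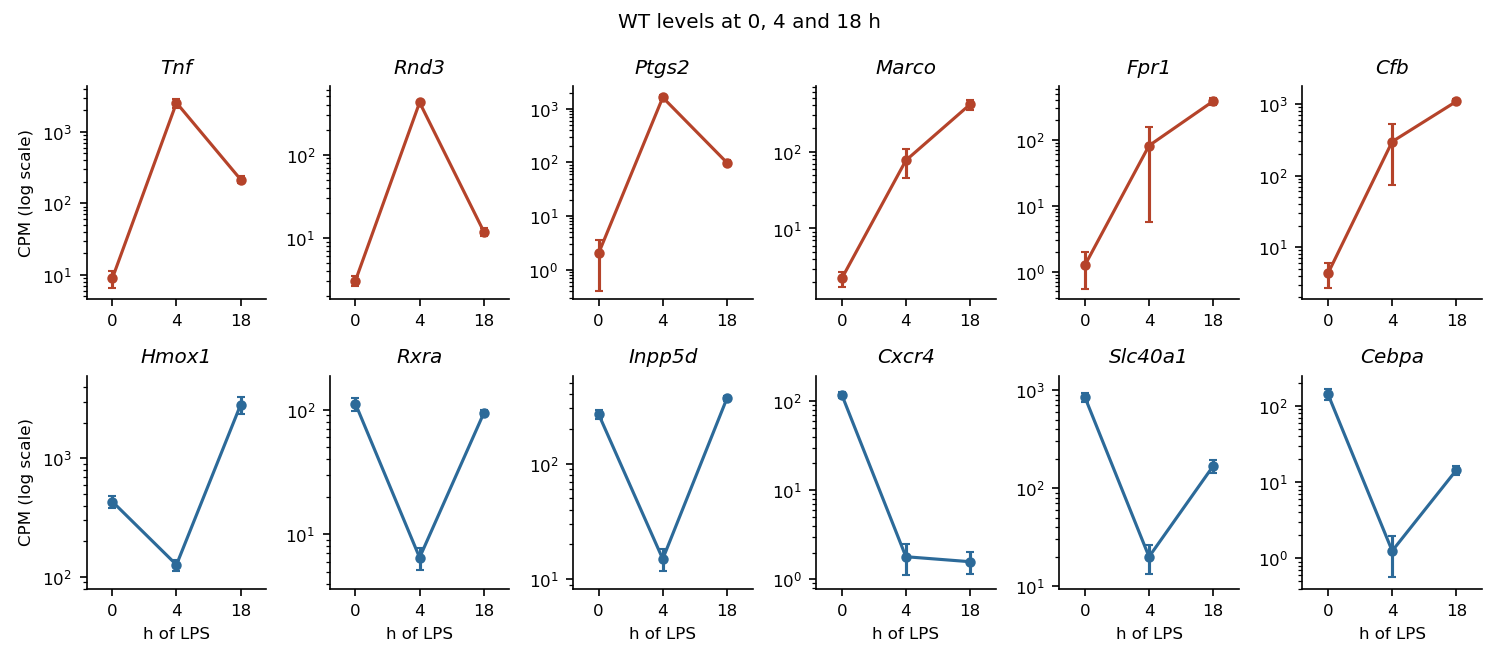
Mean CPM of 12 genes in WT libraries at 0, 4 and 18 h of LPS (log scale), with bars of 1 SD over 4 libraries. The upper row holds genes high at 4 h, of which Tnf, Rnd3 and Ptgs2 are lower again at 18 h and Marco, Fpr1 and Cfb higher still. The lower row holds genes low at 4 h, of which Hmox1, Rxra and Inpp5d are higher at 18 h, and Cxcr4 remains low.

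The same 4 h response was measured in cells labelled Nur77-KO (3 libraries per time), and the difference between the responses was tested in the same fit. Untreated labelled Nur77-KO libraries held 12.3 ± 0.114 CPM of Nr4a1, against 14.7 ± 1.27 CPM in untreated WT libraries (SD, n = 3 and 4), and the sources used here do not give which stretch of the gene was removed, so this value checks nothing. The responses differed in 0.798% of the tested genes, 75 with a higher and 25 with a lower response in the labelled Nur77-KO libraries. Among the genes described above these were Tnip3, Pfkfb3, Rnd1, Lcn2, Kif4, Tpx2 and Mki67. Kif4 was 48 ± 4.78 CPM at 4 h and 1.6 ± 0.0627 CPM untreated in labelled Nur77-KO libraries (response difference 1.54 on the log2 scale, adjusted p = 0.00411 by edgeR). Mki67 was 199.8 ± 13.1 and 27.9 ± 2.81 CPM there (1.47, adjusted p = 0.000571 by edgeR). Rnd1 was 21.7 ± 4.79 and 0.71 ± 0.026 CPM (-1.95, adjusted p = 0.00997 by edgeR). For Kif4 and Mki67 the rise was larger in the labelled Nur77-KO libraries. Their 4 h levels there were close to those of the WT libraries given above, while their untreated levels were lower than in WT libraries. Untreated WT Mki67 was 99 CPM in number 2 and 61.9 to 64.8 CPM in the others. For Rnd1 the labelled Nur77-KO response was smaller, and its untreated WT levels were only 0.109 to 0.328 CPM.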

How the data were processed

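Per the labels' protocols, RNA came from RNeasy columns and was turned into libraries by the KAPA mRNA Hyperprep procedure. The submitters' processing notes name CASAVA 1.8.2, HISAT2 2.1.0 and mm10. For each RefSeq transcript the authors deposited an estimated count, unscaled, as a multiple of 0.5. No source used here names the counting tool or its treatment of strand and shared reads, so near-identical copies and overlapping genes are uncertain. The test was planned for whole counts, so values were rounded to whole numbers, 0.5 upward.

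The 42361 transcripts were matched by ID to RefSeq (42203) or GENCODE (65) names. The 93 others held 0.232 to 2.229% of the counts in the 8 libraries and were left out. The transcript with the highest mean count stood for each of 25067 genes. The counts of a gene's other transcripts were thus left out, a large part of the deposited counts. Deposited totals were 26732056 to 55852932 per library, against 14008382 to 29650081 kept. The kept part was smaller untreated (14476453 of 29716127 in number 4) than at 4 h (15270310 of 29339846 in number 3). With summed transcripts 98.5% of the calls were kept. In R 4.3.3, edgeR 4.0.16 fitted 6 group means over the 21 libraries by quasi-likelihood, after its default expression filter and with TMM factors (trimmed mean of M-values), and p-values were adjusted over all 12529 tested genes. Standard errors are the log2 fold change over the square root of F. Counting intervals are exact at 95% and cover counting error only. The test was tried on simulated counts in which few genes changed, and by small folds. Most genes moved in the data, so that trial cannot vouch for the calls here. Same-numbered WT libraries at 4 h and untreated correlated in their deviations from the group means at 0.23, 0.32, 0.24 and 0.24, against -0.23 to 0.09 for differing numbers, so the numbers pair the libraries by the rule used. The reported fit has no block.

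Genes were named by a rule: in each of 71 lists up to 4 higher and 4 lower members of largest fold change among called genes whose groups did not overlap and whose higher mean reached 5 CPM, up to 3 members against a list that moved at least 80% one way, the 10 largest rises and falls in CPM, and a set of fixed genes. Cxcl1, Cxcl2, Isg15 and Spi1 and the genes of neighbouring runs were added after their values were seen. The text describes part of them, and some items are not reported here. The comparison, members and lists were chosen with earlier results of these data known. The alternatives were DESeq2 1.42.0, limma-voom (limma 3.58.1), other factors, filters and libraries, summed transcripts, a block for the replicate number, and the omission of each library in turn. Promoter windows came from RefSeq on GRCm38.p6, 1 per gene for 79.7% of tested genes, taking first a window whose last bases lie in a GENCODE transcript of the gene. Figures were drawn with matplotlib in Python.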

Additional observations from a re-analysis of the deposited data

Results flagged for a closer look

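In groups of 4 libraries, 1 library stood apart from the other 3 in 43 of 520 groups examined (260 genes at 4 h and untreated), which is 8.27%, where chance gives about 1 in 20. Number 1 at 4 h accounted for 24 of them. At 4 h it was highest, in CPM, for Arid5a (269.6), Batf2 (168), Cfb (632), Clec4e (2902), Cp (1940.3), Cxcl9 (1922), Fpr1 (195), Fpr2 (298), Gbp4 (1367), Gbp6 (818), Irf7 (2105), Lipg (243), Lpar6 (2.95), Nr4a1 (7.25), Scd2 (15.4), Serpinb2 (59.8) and Trim21 (492). It was lowest, in CPM, for Adamts4 (81.6), Ccl22 (31.7), Cd200 (74.8), Cdkn1a (2409), Fscn1 (177), Jdp2 (48.6) and Plxna2 (2.77). The higher set holds Cxcl9, Gbp4, Gbp6, Irf7 and Batf2, which interferons induce, and the lower set holds Ccl22, Fscn1 and Cd200. For Cxcl9 the other 3 libraries at 4 h lay between 631 and 689 CPM, and for Ccl22 between 283 and 296 CPM. Leaving number 1 out ended none of the calls of these 24 genes. Their 4 h and untreated libraries did not overlap, but the rule that named these genes required this, so it is not a result.

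Number 2 at 4 h was highest for Sgsh (9). Among untreated libraries number 1 was highest for Cp (50.2), Il15ra (4.23), Optn (30.1), Parp12 (80.2), Ppard (32.6) and Zfp36l2 (252) and lowest for Arrb1 (168), Ctsd (7604), Fos (54.3), Mt2 (8.14) and Vim (313). Untreated number 2 was highest for Mki67 (99) and lowest for Rnd1 (0.109). Untreated number 4 was highest for Ppbp (3.98), Slc26a11 (68.2) and Zc3h12a (14.8) and lowest for Nr3c1 (112) and Setd7 (90.8). Of the genes examined, Cp alone stood apart in number 1 at both times.

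The response at 4 h differed between labelled Nur77-KO and WT libraries by the test of the difference itself for 7 genes given with values. The difference, labelled Nur77-KO minus WT on the log2 scale, was 1.54 for Kif4, 1.47 for Mki67, 1.16 for Tnip3, 1.08 for Tpx2, -0.66 for Pfkfb3, -1.82 for Lcn2 and -1.95 for Rnd1. For Tnip3 the adjusted p was 0.000241 by edgeR, for Tpx2 0.021, for Pfkfb3 0.0347 and for Lcn2 0.0152 by the same edgeR test.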

How the results depend on the processing

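Of 260 genes given with values, 258 kept their call and direction under all 18 alternatives, and the exceptions were Irf3 and Cxcl14. Most of these genes were named for large changes without overlap, which favours this. Over all called genes, 89.3% kept their call with upper-quartile factors and 93.9% in a fit of the 8 libraries alone. Genes higher numbered 4286 to 4353 and genes lower 5235 to 5312 when each of the 8 libraries was left out, and 3359 and 6935 with upper-quartile factors, 4693 and 5067 with median-of-ratios factors, and 4705 and 5042 with DESeq2. With the replicate block 4448 genes were higher and 5433 lower, and pairing the libraries moved no count of calls by over 1.5 times and ended no call among the named genes. For each list the larger of its counts was followed, and with upper-quartile factors it moved by over 1.5 times in 11 of 71 lists: cholesterol and fatty acid synthesis 9 higher (16 as reported), citric acid cycle 28 lower (14), complement 11 higher (17), cytosolic ribosomal proteins 5 higher (33), lysosome 46 lower (29), mitochondrial ribosomal proteins 46 lower (26), respiratory chain 14 higher (34), ribosome biogenesis 45 lower (27), tetraspanins 4 higher (8), ubiquitin-specific proteases 15 higher (24) and V-ATPase 5 higher (9). The smaller count also moved in other lists, such as fatty acid oxidation (5 higher, 13 as reported), pentose phosphate and nucleotide synthesis (6 higher, 12), protein folding (23 lower, 13), nitric oxide and arginine (7 lower, 4) and cytokine mRNA decay (11 lower, 7). Cytosolic ribosomal proteins had 53 higher with median-of-ratios factors and 55 with DESeq2. The cause was not tested, beyond the shift of the median that each scaling sets. Depth limits genes with few reads, for which ratios are given with counting intervals.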

Other observations

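Further families are given beside the 35.1% of all tested genes that were higher and the 43.0% that were lower. Of 57 Rab and Rab-associated genes 30 were higher (52.6%) and 18 lower (31.6%; median log2 fold change 0.38), and 25 and 24 with upper-quartile factors, with Rab11fip1, of recycling endosomes, at 394 ± 75.5 CPM at 4 h and 8.08 ± 0.859 CPM untreated and Rab7b at 20.1 ± 3.7 CPM at 4 h and 242 ± 11.9 CPM untreated. Of 43 tripartite motif genes 18 were higher (41.9%) and 22 lower (51.2%), with the cytosolic antibody receptor Trim21 at 389 ± 68.9 CPM at 4 h and 23.6 ± 3.58 CPM untreated and Trim16 at 0.325 ± 0.0762 CPM at 4 h and 6.83 ± 0.49 CPM untreated. Of 55 phosphoinositide kinases and phosphatases 28 were higher (50.9%) and 22 lower (40.0%), and 21 and 26 with upper-quartile factors. Pik3r5, a subunit of phosphoinositide 3-kinase gamma, was 1374 ± 109 CPM at 4 h and 149 ± 4.84 CPM untreated, and Pik3r2 was 3.39 ± 0.522 CPM at 4 h and 24.9 ± 1.23 CPM untreated. Of 21 semaphorins, plexins and neuropilins 7 were higher (33.3%) and 12 lower (57.1%; median log2 fold change -0.66). Nrp2, a coreceptor of semaphorins and Vegf, was 1923 ± 223 CPM at 4 h and 351 ± 26.4 CPM untreated, and Plxna2 was 5.75 ± 2 CPM at 4 h and 28.4 ± 3.4 CPM untreated.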
